A study of Homo sapiens with 21 samples.

Results

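The semaphorins, plexins and neuropilins described here are 10 genes: the ligands SEMA3A, SEMA3C, SEMA3F and SEMA7A, the receptors PLXNA1, PLXNA2, PLXNC1 and PLXND1, and the co-receptors NRP1 and NRP2. They were selected on their names together with a readout, since SEMA7A is among the largest decreases when MYC is silenced. All 10 were found among the 42339 genes of the count table. The data are RNA-seq counts from BT-549, an established triple-negative breast cancer (TNBC) cell line with wild-type BRCA1, in 21 libraries that form 7 groups of 3. The 2D cells grew as monolayers, and the 3D cells as mammospheres after serial passage (S6); both have control as their treatment label. A further group of S6 mammospheres was treated with 0.75 μM GO-203, a peptide inhibitor of the MUC1-C cytoplasmic domain. Mammospheres of the tet-MUC1shRNA line (S6) and of the tet-MYCshRNA line (S8) received 0.1% DMSO as vehicle or 500 ng/ml doxycycline (DOX), which switches on the shRNA. All groups come from this line, each target is reached by a single shRNA in a puromycin-selected line, and no DOX-treated line with a scrambled shRNA was analysed here, so effects of DOX and of the shRNA cannot be told apart. By the study's methods the cells for RNA-seq were cultured as triplicates and experiments in general were repeated, but whether the 3 cultures of a group were set up on separate occasions is not given for these libraries, so the p-values measure the spread between these cultures, which may be partly technical.

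Semaphorins are guidance cues first known from the nervous system and later from vessels, immune cells and tumors. Class 3 semaphorins are secreted and mostly bind a neuropilin, which presents them to a plexin, and the plexin carries the signal to the cytoskeleton and to integrins through its intracellular GTPase-activating domain. SEMA7A differs in that it is held on the membrane by a lipid anchor and binds PLXNC1 and β1 integrins. Neuropilins also bind VEGF family growth factors, so that semaphorins and VEGF share co-receptors.

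Library totals ran from 38026597 to 99751717 counts. Among the 21 pairs of replicates the chi-square per degree of freedom was 4.36 to 52.8, so no library repeated another; the highest values, 36.3 and 52.8, belong to replicate 1 of DOX-treated tet-MYCshRNA cells, and the values of the 10 genes on MYC silencing are also given without it. Levels are CPM, counts scaled to library size with correction by TMM factors over all 21 libraries. MUC1 was at 101, 82.4 and 85.3 CPM in vehicle-treated tet-MUC1shRNA cells and at 20.2, 21.6 and 23.1 CPM with DOX. MYC was at 446, 425 and 382 CPM in vehicle-treated tet-MYCshRNA cells and at 239, 282 and 304 CPM with DOX. Each target was lower in every DOX-treated library of its line. The other gene went up in both experiments: MUC1 on MYC silencing (log2 fold change 1.25, adjusted p = 5.06e-06, edgeR) and MYC on MUC1 silencing (0.25, adjusted p = 5.01e-05, edgeR). Of the markers that define the line, group means of ESR1 were at most 0.974 CPM, of PGR at most 0.0384 CPM and of ERBB2 20.1 to 36.1 CPM, while the mesenchymal gene VIM was at 1083 to 2479 CPM. Other mesenchymal genes moved with the groups: CDH2 was at 451 CPM in 2D and 50.2 in 3D cells and at 11.8 and 75.1 CPM with vehicle and DOX in the tet-MUC1shRNA line, and ZEB1 was at 320 and 121 CPM with vehicle and DOX in that line and lowest in 2D cells (95.7 CPM). The summed level of 4 epithelial markers was 0.0519 to 0.14 CPM in vehicle-treated and 2.37 to 2.77 CPM in DOX-treated tet-MUC1shRNA cells. The summed level of 3 endothelial markers was 0.0356 to 0.212 CPM in 2D and 5.87 to 7.08 CPM in 3D cells. In 3D cells nearly all of it was PECAM1 (6.62 CPM in the mean, VWF 0.0264), in 2D cells most of it was VWF (0.0855 CPM, PECAM1 0.0118), and CDH5 was at 0 in both. The 3 leukocyte markers summed to at most 1.63 CPM. The part of these markers in the results was not tested, and in bulk RNA fewer cells of a type and less RNA per cell cannot be told apart.

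Per kilobase of exon (FPKM, mean over the 7 groups), SEMA3C was the most abundant of the 10 genes at 31.1, followed by NRP1 at 22.5, SEMA3F at 5.74 and PLXNA1 at 4.4. PLXND1 had 2.01, NRP2 1.33 and SEMA3A 1.03 FPKM. SEMA7A with 0.789, PLXNC1 with 0.315 and PLXNA2 with 0.191 FPKM had the lowest means. These means hide differences between groups: SEMA7A had 2.79 FPKM in DOX-treated tet-MUC1shRNA cells, where it came after SEMA3C, NRP1 and PLXNA1 and SEMA3A was lowest (0.176), SEMA3A had 5.63 in 2D cells and at most 0.491 elsewhere, and NRP1 (24) exceeded SEMA3C (17.1) in vehicle-treated tet-MYCshRNA cells. With the length of the longest transcript in place of all exons, NRP1 came before SEMA3C and the other 8 kept their order. SEMA3C made up 62.7% of the summed FPKM of the 4 semaphorins in 2D cells and 80.7% to 90% in the other groups, whereas SEMA7A took 8.03% ± 0.682 (SD, n = 3) in DOX-treated tet-MUC1shRNA cells, 11.8% ± 1.26 in vehicle-treated tet-MYCshRNA cells and at most 0.29% elsewhere. PLXNA1 was the leading plexin in 2D cells (74.1% ± 3.65), and in 3D cells it shared that place with PLXND1 (49.8% ± 1.36 and 46.5% ± 0.422). NRP2 was 13.9% ± 0.455 of the 2 neuropilins in 2D cells and 0.826% ± 0.0289 in 3D cells.

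**Figure D1:**
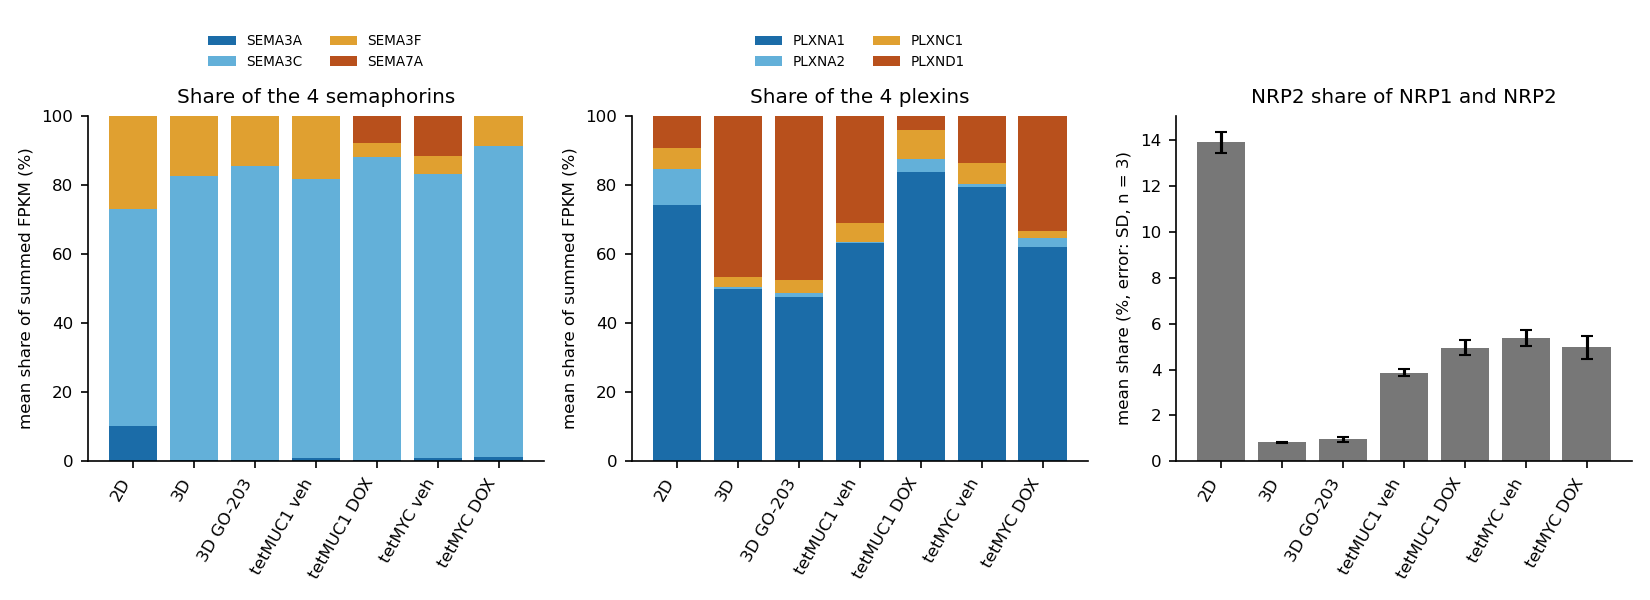
Mean share (%) of the summed FPKM for the 4 semaphorins (left), the 4 plexins (middle) and for NRP2 among NRP1 and NRP2 (right, error bars SD, n = 3) in the 7 groups (veh: vehicle). SEMA7A is visible in only 2 groups, at 8.03% and 11.8%, PLXND1 moves between 4.22% and 47.6% of the plexins, and NRP2 is at 13.9% in 2D cells and below 6% in every other group.

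SEMA7A (ENSG00000138623.10, chr15:74409289-74433958, minus strand, GRCh38 with GENCODE 44) was either low or clearly counted. In 2D cells it was at 0.0446, 0.107 and 0.0353 CPM, which are 2, 6 and 2 counts. The 3D libraries had 0.325, 0 and 0.121 CPM and the GO-203 libraries 0.0884, 0 and 0.199 CPM. A count of 0 there allows up to 0.0577 and 0.0769 CPM at a limit of 3 counts, which covers counting error only. This limit is too low if both mates of a read pair were counted separately. In vehicle-treated tet-MUC1shRNA cells the values were 0.493, 0.187 and 0.348 CPM. These 4 groups overlapped in range where they were next to each other in mean. DOX-treated tet-MUC1shRNA cells had 10.6, 10.1 and 11.2 CPM, and vehicle-treated tet-MYCshRNA cells 10.1, 10.2 and 7.96 CPM. Those 6 libraries overlapped in range between the groups and lay above all others. In DOX-treated tet-MYCshRNA cells SEMA7A was at 0.396, 0.226 and 0.355 CPM, within the range of vehicle-treated tet-MUC1shRNA cells.

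**Figure D2:**
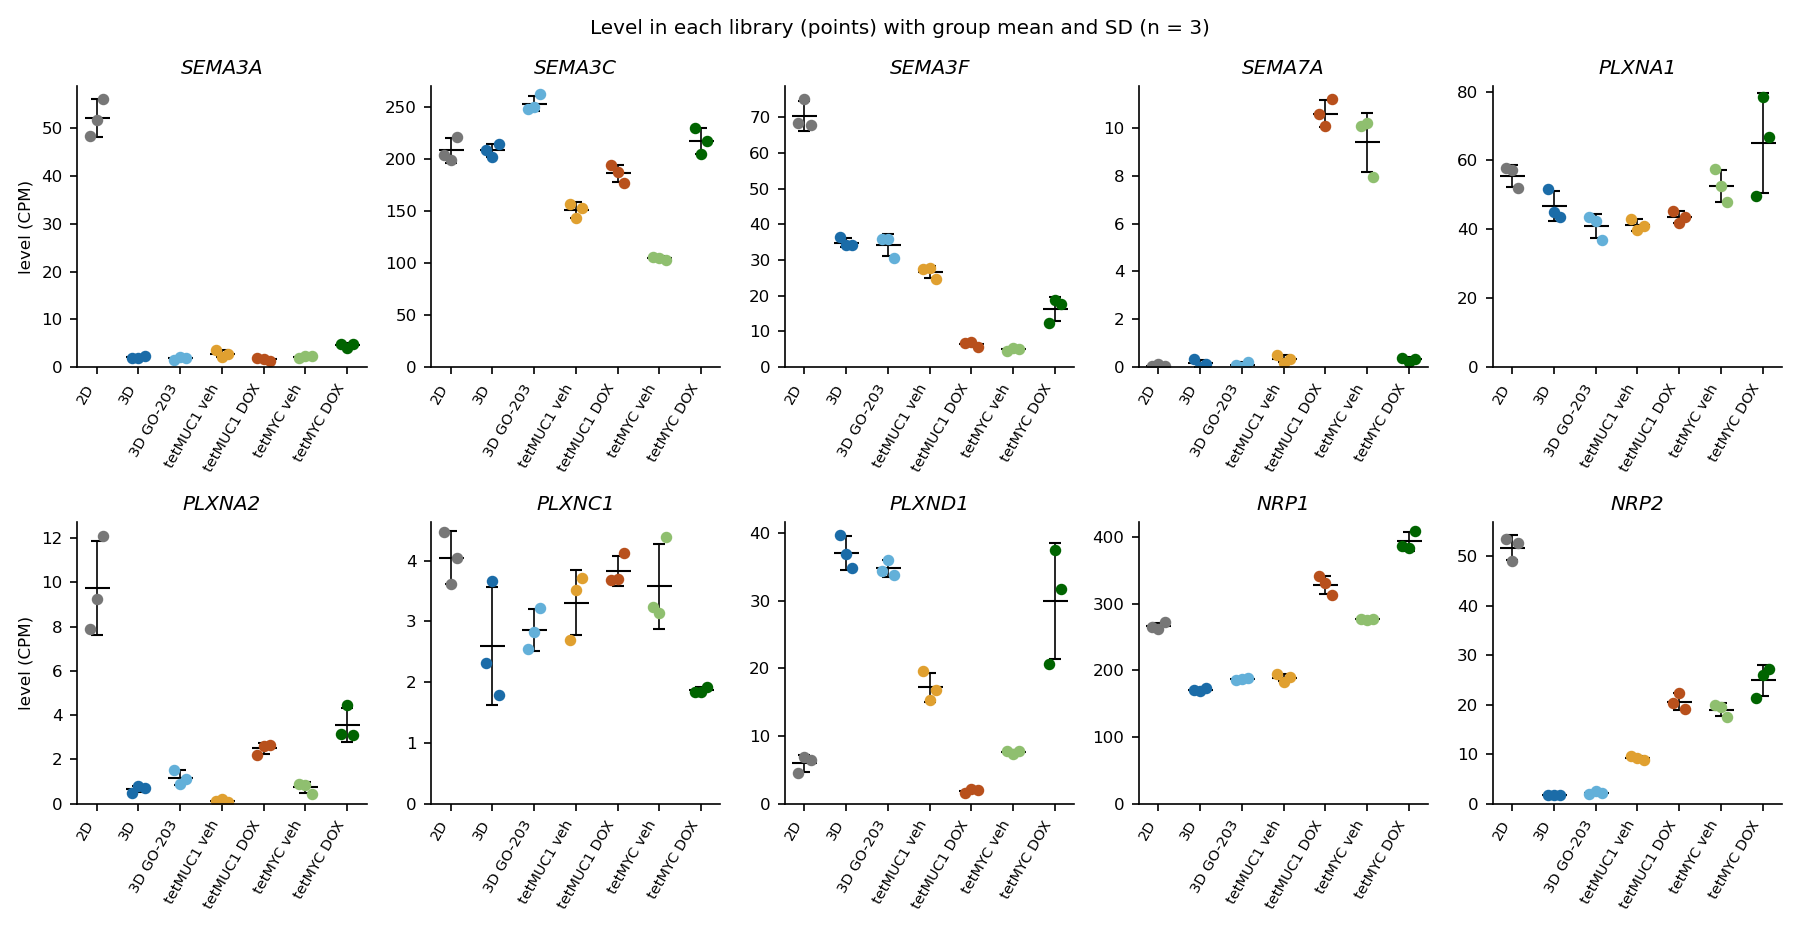
Level in CPM (linear axes from 0) of each of the 10 genes in each library (points), with the group mean and SD (n = 3), for 2D, 3D, 3D with GO-203, and the tet-MUC1shRNA and tet-MYCshRNA lines with vehicle (veh) or DOX. SEMA7A stands at 7.96 to 11.2 CPM in DOX-treated tet-MUC1shRNA and vehicle-treated tet-MYCshRNA cells and at 0.493 CPM or less in the rest, while SEMA3A, PLXNA2 and NRP2 are highest in 2D cells.

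Of the 10 genes, those with the 3 largest changes on MUC1 silencing were SEMA7A, PLXNA2 and PLXND1, and the 250 bases before the start of each are shown because the data turn on how these genes moved. The sequences are RefSeq's promoter windows (GRCh38.p14), written 5′ to 3′ on the gene's strand, and capitals mark every GGGCGG or its reverse complement CCGCCC, the GC box bound by Sp1 family factors. The windows lie at chr15:74433959-74434208, chr1:208244385-208244634 and chr3:129606677-129606926, all on the minus strand and all ending at the base before the GENCODE start of the gene.
SEMA7A: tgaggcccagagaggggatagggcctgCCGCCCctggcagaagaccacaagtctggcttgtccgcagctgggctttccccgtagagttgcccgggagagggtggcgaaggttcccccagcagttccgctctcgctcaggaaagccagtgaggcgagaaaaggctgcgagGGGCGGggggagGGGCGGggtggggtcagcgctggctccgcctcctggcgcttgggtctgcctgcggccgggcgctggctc
PLXNA2: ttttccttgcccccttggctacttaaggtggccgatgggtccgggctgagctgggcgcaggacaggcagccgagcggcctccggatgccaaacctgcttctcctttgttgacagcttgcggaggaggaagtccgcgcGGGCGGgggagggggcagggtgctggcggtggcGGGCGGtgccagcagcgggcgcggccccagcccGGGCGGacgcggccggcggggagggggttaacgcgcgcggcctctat
PLXND1: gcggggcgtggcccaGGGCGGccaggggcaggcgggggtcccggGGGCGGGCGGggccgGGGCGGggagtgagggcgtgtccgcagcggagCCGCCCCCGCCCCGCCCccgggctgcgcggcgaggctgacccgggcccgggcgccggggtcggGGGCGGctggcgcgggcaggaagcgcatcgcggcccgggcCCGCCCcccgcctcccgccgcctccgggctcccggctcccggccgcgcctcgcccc
SEMA7A had 3 such matches, PLXNA2 3 and PLXND1 9, counted with overlaps, and the 3 windows were 70%, 72.4% and 88.8% G or C against a median of 58% over 35114 promoters. A GC box was in 42.6% of those promoters. RefSeq had 13 windows for 8 of the 10 genes (SEMA3A and NRP1 had no entry), and in the window nearest to the GENCODE start it was found for 7 of the 8, all but SEMA3C. The E-box CACGTG, the letters that MYC with MAX binds best and which read the same on both strands, was in 6.35% of all promoters and in 0 of the 13 windows. Its shorter form ACGTG or CACGT, which every CACGTG also contains, was in 18.5% of all promoters and in 1 of the 13 windows, a second SEMA7A window at chr15:74433705-74433954. These matches describe letters in these windows and no binding.

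3D vs. 2D cells differed most in SEMA3A, NRP2, PLXNA2 and PLXND1, the first 3 being lower and the last higher in 3D cells. Of the 9 genes tested, 1 was higher and 7 were lower at an adjusted p below 0.1 in edgeR's quasi-likelihood test, where 32.0% of the 19190 genes tested were higher and 31.7% lower. With an absolute log2 fold change above 1.5 as well, 4 of the 9 passed against 16.2% of all genes, and their median log2 value was -0.59 against -0.01 for all genes tested. SEMA7A was removed by the low-count filter, and 9 is therefore not the whole list; without the filter its log2 fold change was 1.26 (SE 0.92, adjusted p = 0.334, edgeR).

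Among the ligands, SEMA3A (chr7:83955777-84492724), which drives growth cone collapse and acts through NRP1 and class A plexins, was at 48.3, 51.8 and 56.1 CPM in 2D and at 1.87, 1.96 and 2.23 CPM in 3D cells. The groups were far apart, with a log2 fold change of -4.62 (SE 0.1, adjusted p = 6.45e-16, edgeR). SEMA3F (chr3:50155045-50189075), a ligand of NRP2 known for restraining vessel growth, went from 68.4, 75.3 and 67.9 CPM to 36.4, 34.2 and 34.2 CPM, a log2 fold change of -0.96 (SE 0.06, adjusted p = 1.66e-09, edgeR). SEMA3C (chr7:80742538-80922359), which acts through both neuropilins and PLXND1 and patterns the outflow tract of the heart, was at 204, 199 and 221 CPM in 2D and at 208, 202 and 214 CPM in 3D cells. These values overlapped, and the log2 fold change of 0.06 (SE 0.06) did not pass the test (adjusted p = 0.416, edgeR).

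Of the receptors, PLXND1 (chr3:129555214-129606676), the receptor of SEMA3E in vessel patterning, rose from 4.53, 6.85 and 6.51 CPM to 39.7, 36.9 and 34.8 CPM. Its log2 fold change of 2.69 (SE 0.12, adjusted p = 6.62e-12, edgeR) was the only increase among the 10 genes that passed. PLXNA2 (chr1:208022242-208244384), a class A plexin that works with neuropilins and also binds class 6 semaphorins, fell from 7.9, 9.26 and 12.1 CPM to 0.488, 0.77 and 0.693 CPM (log2 fold change -3.84, SE 0.21, adjusted p = 1.07e-10, edgeR). PLXNA1 (chr3:126982693-127037389), a class A plexin for SEMA3A, was at 57.9, 57.1 and 52 CPM in 2D and at 51.7, 45 and 43.7 CPM in 3D cells, with a log2 fold change of -0.2 (SE 0.07, adjusted p = 0.0336, edgeR). PLXNC1 (chr12:94148577-94307675), the plexin that binds SEMA7A, was at 4.48, 3.61 and 4.04 CPM against 2.32, 3.67 and 1.79 CPM (log2 fold change -0.59, SE 0.22, adjusted p = 0.0328, edgeR). The last 2 calls were weak. The PLXNC1 groups overlapped, and the call was lost without replicate 1 (adjusted p = 0.124) or 3 (adjusted p = 0.158) of the 3D cells; its log2 value ranged from -0.91 to -0.37 with a library left out. PLXNA1 lost its call without 2D replicate 1 or 2 or 3D replicate 2 or 3, with adjusted p between 0.115 and 0.172. Of the exon bases of PLXNC1, 9.88% are also exons of genes on the other strand, and the strand setting of the counting is not given in the sources used here.

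The co-receptor NRP2 (chr2:205681990-205798133), which binds SEMA3F and VEGFC, had the largest change of these 9 genes. It was at 53.6, 49 and 52.7 CPM in 2D and at 1.77, 1.71 and 1.67 CPM in 3D cells (log2 fold change -4.86, SE 0.09, adjusted p = 2.01e-16, edgeR). NRP1 (chr10:33177492-33336262), which binds SEMA3A and VEGFA, fell less, from 265, 262 and 272 CPM to 171, 169 and 173 CPM (log2 fold change -0.58, SE 0.05, adjusted p = 6e-08, edgeR). Neither gene overlapped between the groups. Where the tet-MUC1shRNA vehicle libraries stood in for the 3D libraries, all genes tested but SEMA3C kept their direction while sizes moved. NRP2 had a log2 value of -2.46 in place of -4.86, PLXNA2 -6.27 in place of -3.84, so that PLXNA2 then had the largest change, and PLXND1 1.56 in place of 2.69. PLXNC1 lost its call (-0.24, adjusted p = 0.214, edgeR), and SEMA3C was lower than in 2D cells (log2 fold change -0.42, adjusted p = 5.59e-06, edgeR).

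On silencing MUC1, the largest fitted changes were those of SEMA7A and PLXNA2 upward and of PLXND1 and SEMA3F downward. All 10 genes were tested, and 5 rose and 3 fell in edgeR's test at an adjusted p below 0.1, where 30.7% of the 19220 genes tested rose and 31.6% fell. With the fold threshold 4 of 10 passed, against 8.82% of all genes, and the median log2 value was 0.24 against 0.02. SEMA7A rose from 0.493, 0.187 and 0.348 CPM to 10.6, 10.1 and 11.2 CPM, a fitted log2 fold change of 4.95 (SE 0.2), which stayed between 4.66 and 5.24 with any library left out. PLXNA2 went from 0.104, 0.187 and 0.0774 CPM, or 16 counts over the 3 libraries, to 2.21, 2.62 and 2.64 CPM (fitted log2 fold change 4.33, SE 0.33). SEMA7A and PLXNA2 passed the low-count filter only through the DOX-treated libraries, where they are high, so their calls could hardly have failed, no p is given for them, and the counts and median above are no support. When each library had to reach 10 counts, both dropped out, and 4 of the remaining 8 genes rose, namely NRP2, NRP1, SEMA3C and PLXNA1 (0.12, adjusted p = 0.0774, edgeR), and 3 fell. Of all 15849 genes tested under that filter, 5355 rose and 5345 fell. NRP2 rose from 9.57, 9.15 and 8.83 CPM to 20.4, 22.4 and 19.1 CPM (log2 fold change 1.16, SE 0.08, adjusted p = 1.06e-10, edgeR). The values of SEMA7A, PLXNA2 and NRP2 did not overlap between vehicle and DOX. NRP1 rose from 194, 183 and 190 CPM to 341, 331 and 313 CPM (log2 fold change 0.78, SE 0.04, adjusted p = 1.17e-12, edgeR), and SEMA3C from 157, 143 and 153 CPM to 194, 187 and 177 CPM (log2 fold change 0.29, SE 0.04, adjusted p = 9.77e-06, edgeR).

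The decreases on MUC1 silencing were those of PLXND1, SEMA3F and SEMA3A. PLXND1 fell from 19.6, 15.3 and 16.8 CPM to 1.52, 2.1 and 1.96 CPM (log2 fold change -3.21, SE 0.13, adjusted p = 1.72e-14, edgeR). Its share of the 4 plexins was thus 30.9% ± 2.1 (SD, n = 3) with vehicle and 4.22% ± 0.775 with DOX. SEMA3F fell from 27.5, 27.8 and 24.8 CPM to 6.67, 6.94 and 5.74 CPM (log2 fold change -2.05, SE 0.08, adjusted p = 1.72e-14, edgeR). SEMA3A was low throughout, at 3.63, 2.1 and 2.73 CPM with vehicle and 1.85, 1.78 and 1.26 CPM with DOX, and its log2 fold change was -0.79 (SE 0.21, adjusted p = 0.00354, edgeR). PLXNA1 (0.07, SE 0.06, adjusted p = 0.335, edgeR) and PLXNC1 (0.19, SE 0.16, adjusted p = 0.317, edgeR) did not pass. With library size alone as the scale, all genes together moved by 0.17 (median, log2), and both then passed as increases (0.23 and 0.36).

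On MYC silencing the values are given with no test, because this contrast chose the genes. SEMA7A fell from 10.1, 10.2 and 7.96 CPM to 0.396, 0.226 and 0.355 CPM, a fitted log2 fold change of -4.87 (SE 0.21, and -5.04 without DOX replicate 1), and its share of the 4 semaphorins went from 11.8% to 0.215%. Its receptor PLXNC1 went from 3.23, 3.13 and 4.39 CPM to 1.84, 1.84 and 1.92 CPM (log2 fold change -0.95, SE 0.18). These were the 2 negative values, and the other 8 were positive; over all genes tested, 30.3% were called up and 28.1% down, and nothing is read from the comparison of these shares. PLXNA2 had 0.892, 0.86 and 0.452 CPM with vehicle and 3.12, 4.44 and 3.1 CPM with DOX (log2 fold change 2.24, SE 0.26). PLXND1 had 7.79, 7.37 and 7.8 CPM with vehicle and 20.6, 37.5 and 31.8 CPM with DOX (log2 fold change 1.95, SE 0.18, and 2.15 without DOX replicate 1). SEMA3F went from 4.61, 5.46 and 5.09 CPM to 12.4, 18.7 and 17.6 CPM (log2 fold change 1.66, SE 0.15, and 1.81 without DOX replicate 1). Replicate 1 of the DOX-treated cells was the lowest of its group for PLXND1 and SEMA3F. Together with SEMA7A these 3 exceeded an absolute log2 fold change of 1.5, so 4 of 10 did, beside 10.5% of all genes that did so and passed the test.

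The class 3 ligands with smaller values on MYC silencing were SEMA3A, at 1.81, 2.29 and 2.31 CPM with vehicle and 4.9, 3.9 and 4.84 CPM with DOX, and SEMA3C, at 106, 105 and 103 CPM with vehicle and 230, 205 and 217 CPM with DOX. Their log2 fold changes were 1.07 (SE 0.17) and 1.04 (SE 0.07). NRP1 was at 277, 275 and 277 CPM with vehicle and 387, 384 and 410 CPM with DOX, the highest level of this gene in the series (log2 fold change 0.49, SE 0.06). NRP2 had 20, 19.5 and 17.5 CPM with vehicle and 21.4, 26.1 and 27.2 CPM with DOX (0.37, SE 0.1). PLXNA1 had 57.4, 52.5 and 48 CPM against 49.6, 78.5 and 66.9 CPM, so its groups overlapped, and its log2 fold change of 0.29 (SE 0.13) was 0.43 without DOX replicate 1 and 0.13 without DOX replicate 2. Without DOX replicate 1, the values of the other genes were 1.0 for SEMA3A, 0.98 for SEMA3C, 2.30 for PLXNA2, -0.96 for PLXNC1, 0.49 for NRP1 and 0.45 for NRP2.

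**Figure D3:**
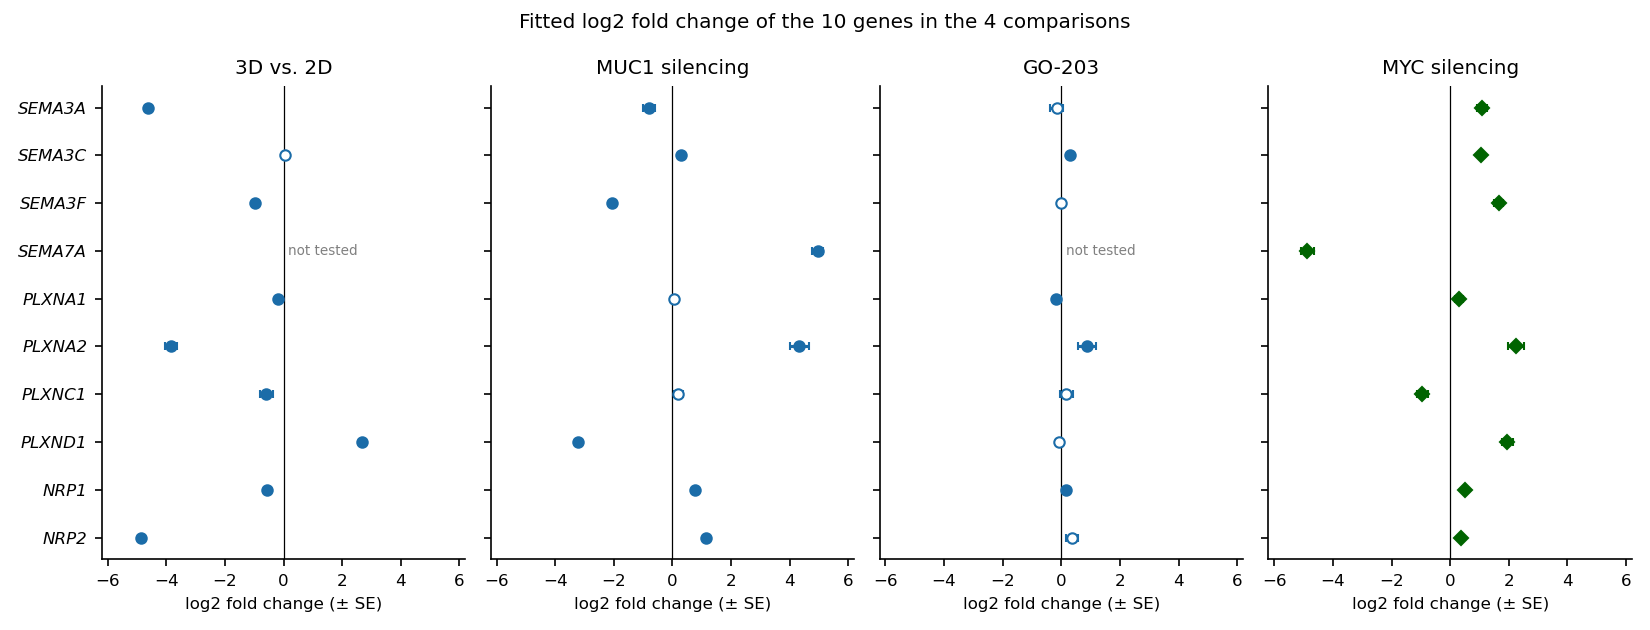
Fitted log2 fold change (horizontal axis, error bars SE) of the 10 genes in the 4 comparisons; circles are filled where edgeR's adjusted p was below 0.1 and open where it was not, and diamonds are values on MYC silencing, given without a test. SEMA7A sits at 4.95 on MUC1 silencing and -4.87 on MYC silencing, and PLXND1 and SEMA3F also have opposite signs there, while no value with GO-203 exceeds 0.87.

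Side by side, SEMA7A, SEMA3F and PLXND1 had opposite signs in the silencing experiments (4.95 and -4.87, -2.05 and 1.66, -3.21 and 1.95 on the log2 scale for MUC1 and MYC), as did SEMA3A (-0.79 and 1.07) and, with a MUC1 value that did not pass, PLXNC1 (0.19 and -0.95). PLXNA2 was positive in both (4.33 and 2.24), as were SEMA3C, NRP1 and NRP2. The difference between the 2 silencing effects was not tested for these genes, since MYC silencing chose them. The vehicle-treated mammospheres of both lines already differed. SEMA7A was 27.4 times as high in the tet-MYCshRNA as in the tet-MUC1shRNA vehicle group (9.4 ± 1.25 and 0.343 ± 0.153 CPM, SD, n = 3), and PLXNA2 5.99 times as high (0.735 ± 0.245 and 0.123 ± 0.057 CPM). SEMA3F was 5.29 times (26.7 ± 1.63 and 5.05 ± 0.425 CPM) and PLXND1 2.25 times (17.2 ± 2.16 and 7.65 ± 0.245 CPM) as high in the tet-MUC1shRNA vehicle group. For the other 6 genes the ratio of the tet-MYCshRNA to the tet-MUC1shRNA vehicle mean was between 0.693 (SEMA3C) and 2.07 (NRP2). MYC itself was at 418 ± 32.6 CPM and 242 ± 9.07 CPM in these vehicle groups, and MUC1 at 69.4 ± 2.76 CPM and 89.4 ± 9.79 CPM. The groups differ in line, shRNA and passage (8 and 6), which cannot be told apart.

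GO-203 changed these genes little. Of the 9 genes tested, 3 rose and 1 fell at an adjusted p below 0.1 in edgeR's test, where 11.1% of the 18488 genes tested rose and 12.9% fell. The largest value was 0.87, so none reached the fold threshold, which 0.757% of all genes passed, and the median was 0.15 against 0.01. The 3D libraries are the reference here and the treated side in 3D vs. 2D, so both comparisons share them. SEMA3C rose from 208, 202 and 214 CPM to 248, 250 and 262 CPM (log2 fold change 0.3, SE 0.05, adjusted p = 0.000344, edgeR), its highest level in the series, and the groups did not overlap. PLXNA2 was at 0.488, 0.77 and 0.693 CPM without and 1.52, 0.871 and 1.13 CPM with GO-203 (log2 fold change 0.87, SE 0.31, adjusted p = 0.053, edgeR). NRP1 was at 171, 169 and 173 CPM without and 185, 187 and 188 CPM with the peptide (log2 fold change 0.15, SE 0.05, adjusted p = 0.0668, edgeR), and PLXNA1 at 51.7, 45 and 43.7 CPM against 43.5, 42.3 and 37 CPM (log2 fold change -0.18, SE 0.07, adjusted p = 0.0984, edgeR). The last 3 calls were near the threshold, and NRP1 lost its call with any of 5 libraries left out. Without 3D replicate 1 none of them passed (adjusted p 0.188, 0.177 and 0.474), and none did without GO-203 replicate 3 (0.107, 0.143 and 0.418). NRP1 also lost its call with no low-count filter (adjusted p = 0.201) and with all 21 libraries in a single fit (adjusted p = 0.125). Its log2 value stayed at 0.14 to 0.15 with any library left out, that of PLXNA2 ranged from 0.63 to 1.03, and that of PLXNA1 was -0.10 without either of these libraries.

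SEMA3A (1.87, 1.96 and 2.23 CPM without, 1.46, 2.13 and 1.79 CPM with GO-203), SEMA3F (36.4, 34.2 and 34.2 against 35.8, 36 and 30.6 CPM) and PLXNC1 (2.32, 3.67 and 1.79 against 2.54, 2.82 and 3.22 CPM) overlapped between the groups and did not pass. NRP2 had 1.77, 1.71 and 1.67 CPM without and 1.99, 2.46 and 2.12 CPM with GO-203 and did not pass either (log2 fold change 0.37, SE 0.2, adjusted p = 0.233, edgeR). PLXND1 had 39.7, 36.9 and 34.8 CPM without and 34.4, 36.1 and 33.8 CPM with GO-203 (-0.08, SE 0.06, adjusted p = 0.47, edgeR). SEMA7A was again removed by the filter, and without it gave -0.51 (SE 0.83, adjusted p = 0.798, edgeR).

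The GO-203 effect minus the MUC1 silencing effect was tested over the 12 libraries of both experiments, and 7 of the 10 genes passed at an adjusted p below 0.1 in edgeR, where 44.9% of the 20829 genes tested did. SEMA7A, 1 of the 7, passed the filter only through the DOX-treated tet-MUC1shRNA libraries and had 40 counts over the 6 3D and GO-203 libraries. Its call is therefore no support, and its value of -5.32 (SE 0.84) is given without a p. With at least 10 counts in every library, SEMA7A and PLXNA2 dropped out and 5 of the remaining 8 genes passed, beside 8634 of all 14940 genes. The difference was -3.46 for PLXNA2 (SE 0.47, adjusted p = 1.13e-06, with 16 counts over the 3 tet-MUC1shRNA vehicle libraries), 3.13 for PLXND1 (SE 0.14, adjusted p = 1.15e-15) and 2.03 for SEMA3F (SE 0.11, adjusted p = 5.21e-14) on the log2 scale. SEMA3C rose under both, with a difference of 0 (SE 0.07, adjusted p = 0.97, edgeR). Doses, times and lines differ between the experiments.

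The other genes of the pathway, 59 in all, comprised 16 other semaphorins, 5 other plexins, 12 partner receptors and neuropilin ligands, 23 cytoplasmic effectors and 3 processing proteases. In 3D vs. 2D cells 49 of them were tested, of which 19 rose and 22 fell in edgeR's test, where 32.0% of all genes tested rose and 31.7% fell, and 4 of the 5 other plexins fell, PLXNA4 among them, which passed the low-count filter only through the 2D libraries, where it is high. When each library had to reach 10 counts, 41 genes remained, of which 16 rose and 18 fell, beside 5230 and 5278 of all 15685 genes. VEGFA, the growth factor that binds NRP1, was at 332, 327 and 323 CPM in 3D and 57.1, 60.4 and 65 CPM in 2D cells (log2 fold change 2.48, SE 0.06, adjusted p = 3.16e-15, edgeR). DPYSL3, a collapsin response mediator protein, and SEMA6A, a transmembrane ligand of class A plexins, rose by 2.02 and 2.00. SEMA3D, another secreted class 3 ligand, fell from 313, 279 and 308 CPM to 11, 13 and 11.5 CPM (log2 fold change -4.61, SE 0.08, adjusted p = 9.41e-17, edgeR). MICAL2, an actin-oxidizing enzyme of the family that acts below plexins, fell from 89.5, 78.2 and 78 CPM to 5.55, 5.64 and 5.24 CPM (-3.85), and PLXNA4, a class A plexin, from 4.82, 6.75 and 7.53 CPM to 0.203, 0.0385 and 0.0301 CPM (-6.15).

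On MUC1 silencing 15 of 48 tested pathway genes rose and 24 fell, beside 30.7% of all genes tested that rose and 31.6% that fell. With at least 10 counts in every library 42 remained, of which 15 rose and 21 fell, beside 5355 and 5345 of all 15849 genes. MICAL2 rose from 7.57, 6.42 and 6.21 CPM to 39.6, 41 and 36.9 CPM (log2 fold change 2.54, SE 0.08, adjusted p = 2.79e-16, edgeR), SEMA3D by 1.76 and SEMA6A by 1.08. SEMA4G, a transmembrane semaphorin, fell from 18, 17.7 and 16.9 CPM to 2.5, 2.57 and 2.75 CPM (-2.76, SE 0.1, adjusted p = 4.08e-15, edgeR). DPYSL4, a relative of DPYSL3, had a log2 fold change of -2.63, and PGF, a growth factor that binds neuropilins, of -2.48. With GO-203, 5 of 49 rose and 10 fell, beside 11.1% and 12.9% of all genes tested. PGF (log2 fold change -1.52) fell here too, from 2.84, 2.69 and 3.45 CPM to 0.663, 1.08 and 1.33 CPM, and MET, the hepatocyte growth factor receptor and a partner of class B plexins, from 74, 72.7 and 77 CPM to 46.7, 42.9 and 50.8 CPM (-0.65, SE 0.06, adjusted p = 1.22e-07, edgeR). SEMA3D fell (-1.14), whereas DPYSL3 (0.7), SEMA6A (0.55) and MICAL2 (0.39) rose.

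On MYC silencing 29 of 48 tested pathway genes rose and 10 fell, beside 30.3% and 28.1% of all genes tested, and all 5 of the other plexins rose. PLXNA4 among them (log2 fold change 3.1, SE 0.58) was too low to be tested on MUC1 silencing or with GO-203, so its call here carries little weight. Without DOX replicate 1, 29 rose and 8 fell. When each library had to reach 10 counts, 46 genes remained, of which 28 rose and 10 fell, beside 5458 and 5229 of all 16622 genes. The median log2 fold change of the 48 was 0.52, against 0.01 for all genes tested. DPYSL3 rose from 5.87, 5.58 and 5.94 CPM to 37.4, 37.4 and 41.4 CPM (log2 fold change 2.73, SE 0.09, adjusted p = 1.13e-08, edgeR). NRCAM, an adhesion molecule that joins neuropilins, rose by 2.65 and SEMA3D by 1.55. L1CAM, the adhesion molecule that joins NRP1 in SEMA3A responses, fell from 2.81, 2.5 and 4.18 CPM to 0.435, 0.937 and 0.872 CPM (-2.08, SE 0.3, adjusted p = 0.000195, edgeR). VEGFC, a ligand of NRP2, had a log2 fold change of -1.23 and MICAL3 of -0.98.

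**Figure D4:**
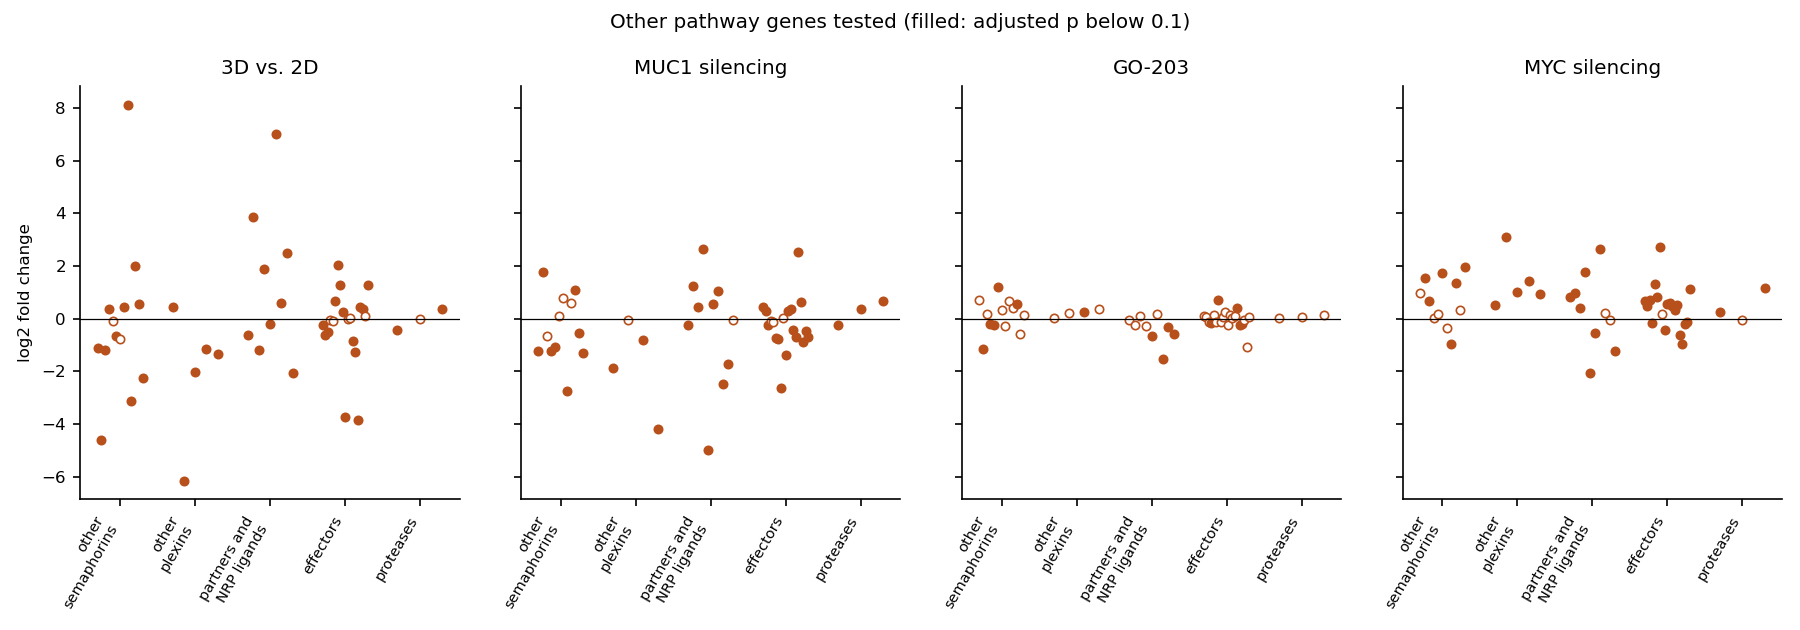
Log2 fold change (vertical axis) of each tested gene of the 5 other pathway lists in the 4 comparisons, with filled circles for an adjusted p below 0.1 in edgeR. In 3D vs. 2D cells 19 rose and 22 fell (32.0% and 31.7% of all genes), on MUC1 silencing 15 and 24 (30.7% and 31.6%) and on MYC silencing 29 and 10 (30.3% and 28.1%), and the values with GO-203 lie closest to 0.

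The genes whose pattern over the 7 group means of log2 CPM was most like that of SEMA7A were TGM2, VNN1 and LAMB3, among 17041 genes tested in all 4 comparisons. SEMA7A itself was not tested in 3D vs. 2D cells or with GO-203. Genes as low as SEMA7A in those groups could therefore be left out of this search. Their root mean square differences from the SEMA7A profile, each profile centred on its own mean, were 1.06, 1.25 and 1.29. TGM2, a transglutaminase that cross-links proteins, had mean levels of 10.1 CPM in 2D, 5.75 in 3D, 2.64 with GO-203, 34.1 and 165 CPM with vehicle and DOX in tet-MUC1shRNA cells, and 146 and 15.1 CPM with vehicle and DOX in tet-MYCshRNA cells. VNN1, a pantetheinase, had 1.65 and 5.52 CPM in the tet-MUC1shRNA and 2.7 and 0.57 CPM in the tet-MYCshRNA line, in the same order. LAMB3, a laminin chain, had 5.81 and 39.2 CPM in the tet-MUC1shRNA and 10.2 and 7.04 CPM in the tet-MYCshRNA line. With the largest difference over the groups as the measure, TGM2 and VNN1 were again chosen and MECOM took the place of LAMB3.

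In the order of levels over the 7 groups, PLXNA1 and PLXNC1 overlapped between every pair of neighbours, and their highest group mean was 1.59 and 2.17 times the lowest. NRP1 and SEMA3F overlapped between 1 of 6 neighbouring pairs: vehicle-treated tet-MUC1shRNA and GO-203 cells for NRP1, and 3D and GO-203 cells for SEMA3F. SEMA3A was 52.1 ± 3.92 CPM (SD, n = 3) in 2D cells and 4.55 ± 0.561 CPM in the next group, DOX-treated tet-MYCshRNA cells, while the lowest 5 groups overlapped from neighbour to neighbour. NRP2 was highest in 2D cells (51.8 ± 2.43 CPM), followed by 3 overlapping groups between 19 and 24.9 CPM in the mean, and then, apart from each other, vehicle-treated tet-MUC1shRNA (9.18 ± 0.372 CPM), GO-203 (2.19 ± 0.243 CPM) and 3D cells (1.72 ± 0.0476 CPM).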

How the data were processed

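The authors deposited raw gene counts from stranded, paired-end mRNA libraries of BT-549 cells, made with STAR and featureCounts on GRCh38, without normalization. The STAR version is 2.7.3a in the submitters' processing notes, while the study's methods name a different one. The annotation release, strand setting and treatment of multimapping reads are not given in the sources used here. Even numbers made up 67% to 71.1% of counts from 1 to 20 but 50.2% to 51.7% of counts above 500, so mates may have been counted separately, and counting error is then larger than the counts imply. Blank cells were read as 0, and none of the 10 genes had one. Symbols, positions and exon lengths came from GENCODE 44, which named 42252 of 42339 identifiers.

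In R 4.3.3, each comparison was fitted on its own libraries over all genes with edgeR 4.0.16 (filterByExpr, TMM factors, quasi-likelihood test, Benjamini-Hochberg adjustment). A call needs an adjusted p below 0.1, and with the fold threshold also an absolute log2 fold change above 1.5. Scripts were tested on simulated data. FPKM are CPM divided by the kilobases of all exons. Genes named besides the 10 are, for each comparison, up to 3 rises and 3 falls of the pathway lists with an adjusted p below 0.1, groups that did not overlap and a mean count of at least 100, and the 3 genes most like SEMA7A. The members and lists were chosen with earlier results of these data known, so their patterns are no independent support. Alternatives were DESeq2 1.42.0, RLE factors, library size alone, a single fit of the 21 libraries, a replicate block, a filter of 1 count in total or of 10 in each library, a threshold of 0.05, the tet-MUC1shRNA vehicle libraries standing in for 3D cells, and leaving out each library; those of the pathway counts were added after seeing the data.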

Additional observations from a re-analysis of the deposited data

Results flagged for a closer look

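For 6 genes the response to GO-203 differed from the response to MUC1 silencing by a test of that difference (edgeR's quasi-likelihood test over 12 libraries, all values on the log2 scale). Of all 20829 genes tested, 44.9% passed this test. The GO-203 effect minus the MUC1 silencing effect was -3.46 for PLXNA2 (adjusted p = 1.13e-06, with 16 counts over the 3 tet-MUC1shRNA vehicle libraries), 3.13 for PLXND1 (adjusted p = 1.15e-15) and 2.03 for SEMA3F (adjusted p = 5.21e-14). It was -0.80 for NRP2 (adjusted p = 0.000236), -0.64 for NRP1 (adjusted p = 4.77e-09) and -0.25 for PLXNA1 (adjusted p = 0.0538). For SEMA7A it was -5.32, given without a p because the gene passed the low-count filter only through the DOX-treated tet-MUC1shRNA libraries; it rests on 40 counts over the 6 3D and GO-203 libraries and ranged from -6.48 to -4.24 when each library was left out. When each library had to reach 10 counts, SEMA7A and PLXNA2 dropped out and 5 of the remaining 8 genes passed, beside 8634 of all 14940 genes. PLXNA1 lost its call with any of 6 libraries left out.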

How the results depend on the processing

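Of the values of the 10 genes under all alternatives, 657 kept their direction and side of the threshold or, without a test, moved by at most the SE of the main fit. A further 37 lost a call, 8 gained one, 21 changed sign and 4 moved by more than that SE. With any library left out, 1 gene was higher and 5 to 7 were lower in 3D vs. 2D cells. When MUC1 was silenced 5 rose and 3 fell throughout. SEMA7A and PLXNA2, among these 5, passed the low-count filter only through the DOX-treated libraries. On MYC silencing 4 passed the fold limit throughout, SEMA7A among them, whose fall there chose the list. The GO-203 minus MUC1 silencing difference was called for 6 to 8, SEMA7A included. That such calls held is no support. With GO-203 the counts were less stable: 1 to 3 genes rose and 0 to 1 fell with a library left out, and at an adjusted p below 0.05 only SEMA3C, 1 gene, rose. NRP1 was not called with no low-count filter or with all 21 libraries in one fit, where NRP2 was (adjusted p = 0.0734, edgeR). PLXNA1, the 1 gene that fell, was not called, leaving 0, at an adjusted p below 0.05, with DESeq2, with library size alone, with at least 10 counts in every library and with all 21 libraries in one fit; its unadjusted p was below 0.05 in all of these fits but the last. The cause was not tested.

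Signs changed only for values that had not been called. SEMA3C in 3D vs. 2D cells was -0.0032 with library size alone and -0.42 where the tet-MUC1shRNA vehicle libraries stood in for 3D cells. With a library left out, SEMA3F with GO-203 ranged from -0.06 to 0.06 (0.01 without 3D replicate 1) and PLXNC1 from -0.05 to 0.51. In the difference of the 2 effects, SEMA3C was -0.01 with DESeq2, -0.01 with RLE factors, -0.15 with library size alone (adjusted p = 0.0485, edgeR), -0.02 with no filter, -0.04 with at least 10 counts, -0.00028 with all 21 libraries, and -0.02 to 0.04 with a library left out (among these -0.0015 and -0.0016), and PLXNC1 was between -0.24 and 0.31 (among these 0.04, 0.05 and 0.10). Library size alone shifted the median of all genes by 0.17 on MUC1 silencing and by -0.15 in that difference.

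Between the groups of a comparison, deviations of same-numbered libraries correlated by -0.18 to 0.08. With GO-203 these correlations were 0.06, 0.05 and 0.08, against -0.07 to 0 for differently numbered libraries. Whether the numbers pair the samples cannot be told from values this small. With the replicate block the 10 genes gave 1 up and 7 down for 3D against 2D, and 5 and 3 for MUC1 silencing. It gave 3 and 1 with GO-203, 4 past the fold limit on MYC silencing and 7 for the difference, under the limits given above for SEMA7A and PLXNA2. Depth limits SEMA7A and PLXNA2, which had 10 to 55 and 16 counts in the groups where they were lowest.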
